A study of Ovis aries with 6 samples.

Results

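The genes described here are 3 that promote cell division or cell survival, CCND2, CDK1 and BCL2, and 1 that holds division back, CDKN1B. They were measured in 2 areas of sheep skin, the wool-bearing body side and the groin, which bears no wool. They are 4 of the 730 genes that could be named on the array, and 6 of its 15008 distinct probes read them. The CDK1 probe (A_70_P047446) was named through a RefSeq accession, as were 734 probes of the array. The probes of CCND2 (A_70_P005691) and CDKN1B (A_70_P024516 and A_70_P024517) and the first BCL2 probe (A_70_P031256) carry names that come only from the study's own tables of differentially expressed probes. A second BCL2 probe (A_70_P031257) is not named in those tables and was found because it carries the same sequence name as the first. Each of the 6 probes has 1 spot per array. The sequences of the probes were not used here, so which part of a transcript each one reads is not known.

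Full-thickness skin was taken in December from Aohan fine wool sheep aged 16 months, 1 ram and 2 ewes that shared a father. The animals were reared in pens, and both areas were sampled on the same animal. Cy3-labelled total RNA of each skin sample went onto a one-colour Agilent sheep array, and each area has 3 arrays. The labels do not say which arrays share an animal, so p-values measure the spread between arrays of one area. On the arrays of groin replicates 1, 2 and 3, 92.3%, 79.6% and 79.9% of spots were well above background, and on those of body side replicates 1, 2 and 3 it was 75.03%, 76.0% and 74.1%. The median signal was 180 to 193 on the groin arrays and 97.5 to 130 on the body side arrays. No spot was saturated. Whole skin holds follicles, epidermis, dermis, glands and vessels together, so fewer cells of a type and less RNA per cell cannot be told apart in any value below.

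A dividing cell passes its checkpoints through cyclins, which are made and destroyed in turn, and the cyclin-dependent kinases they switch on. CCND2 encodes cyclin D2, which works with CDK4 and CDK6 early in the cycle, and CDK1 encodes the kinase that drives cells into mitosis. CDKN1B encodes p27, a protein that binds cyclin-kinase complexes and blocks them, and its level is usually high in resting cells. BCL2 protects mitochondria from the proteins that start programmed cell death. In the hair follicle, growth of the fibre depends on rapid division of matrix cells in the bulb, and regression of the follicle proceeds through cell death.

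Signals of both division genes were higher in body side skin, and those of the inhibitor were lower. CCND2 differed by 2.79-fold and CDK1 by 3.81-fold, while the CDKN1B probes differed in the other direction. The first of these differed by 3.44-fold. The second, at background on 2 of 3 body side arrays, differed by 4.04-fold with those arrays set to the lowest clear signal. The BCL2 probes had body side means 2.07 and 1.82 times those of the groin and were not called. A probe was called where limma, fitted to all tested probes after quantile normalization, gave a difference of 2-fold or more with an adjusted p (Benjamini-Hochberg) below 0.05. By this rule 4 of the 6 probes were called, against 8.4% of the 13929 probes tested. Of the 6, 2 were called higher, against 3.53% of all tested, and 2 lower, against 4.87%. With slide column as a block none of the 4 was called, but neither was any other probe of the array. With normexp background correction neither CDKN1B probe was called, at log2 fold changes of -0.54 and -0.74. Calls over the array then fell from 1170 to 444. Most of these probes were named from a list of differences between the same arrays, so the share of them that was called says nothing about these genes as a group.

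**Figure D1:**
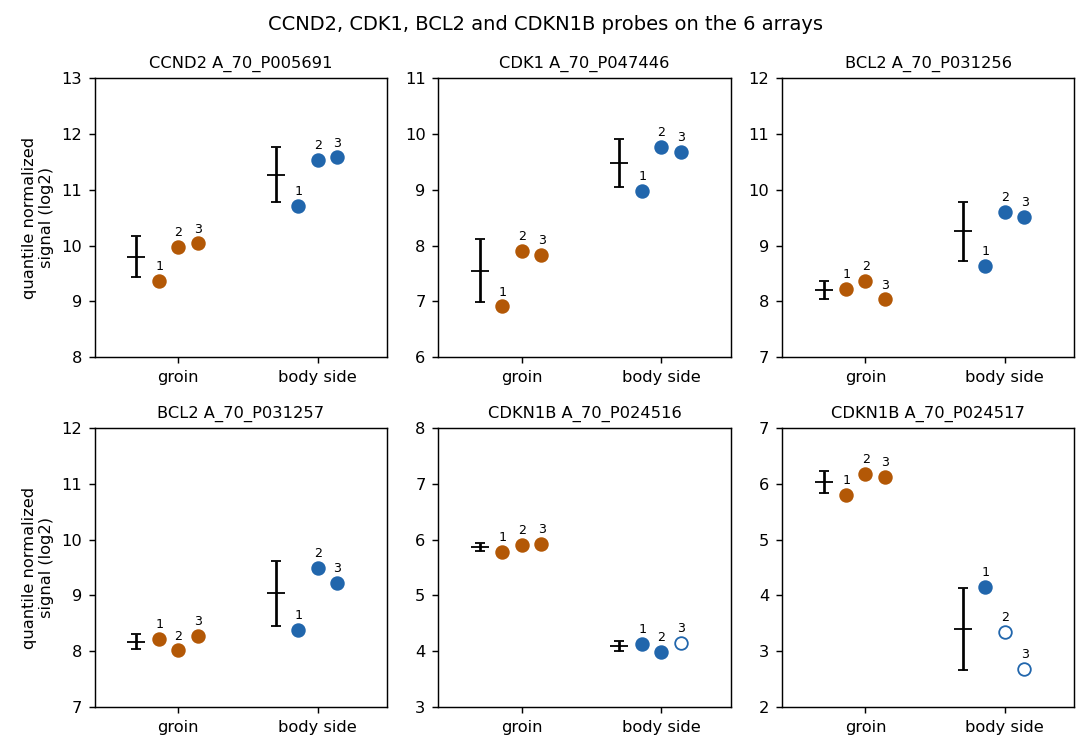
Quantile normalized log2 signal (vertical axis, a range of 5 in each panel) of the 6 probes on the 3 groin and 3 body side arrays, numbered by replicate. Filled points are well above background, open points are not, and the bars are the mean and SD of each area. CCND2, CDK1 and BCL2 lie higher and CDKN1B lower on the body side arrays, and body side replicate 1 lies closest to the groin arrays for CCND2, CDK1, both BCL2 probes and CDKN1B A_70_P024517.

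CCND2 had processed signals of 775, 1201 and 1253 on groin replicates 1, 2 and 3 and of 1488, 2741 and 3025 on body side replicates 1, 2 and 3. The areas did not overlap even before the arrays were scaled to each other, although body side replicate 1 gave about the signal of the brightest groin array. After normalization it averaged 11.3 ± 0.49 on the body side and 9.80 ± 0.37 in the groin (log2 signal, mean ± SD, n = 3 each). This is a log2 fold change of 1.48 (standard error 0.31, 95% interval 0.72 to 2.24, adjusted p = 0.035 from limma). After normalization the areas did not overlap for any of the 6 probes, but that alone is common on these arrays. It held for 43.8% of the 13752 tested probes with complete values, with body side skin the higher for 25.9% and the lower for 17.9%.

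CDK1 had signals of 152, 320 and 303 on the groin arrays and of 456, 697 and 704 on the body side arrays, in replicate order. Every body side array was above every groin array, and groin replicate 1 had the lowest signal, as it did for CCND2. Normalized means were 9.48 ± 0.43 for the body side and 7.55 ± 0.56 for the groin (log2 signal, SD, n = 3 each), which gave a log2 fold change of 1.93 (standard error 0.35, 95% interval 1.07 to 2.79, adjusted p = 0.027 from limma).

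CDKN1B went the other way, and in body side skin its signals came near the detection limit. Its probe A_70_P024516 had signals of 76.1, 81.3 and 79.3 on groin replicates 1, 2 and 3, and of 14.4, 10.02 and 13.2 on the body side arrays. The groin values lay within a narrow range, and the scanner software gave the body side values errors of 3.04, 2.08 and 2.98. All 3 groin arrays and 2 of the 3 body side arrays measured it well above background. Normalized means were 4.09 ± 0.09 for the body side and 5.87 ± 0.07 for the groin (log2 signal, SD, n = 3 each), a log2 fold change of -1.78 (standard error 0.14, 95% interval -2.12 to -1.45, adjusted p = 0.0047 from limma).

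The other CDKN1B probe, A_70_P024517, had signals of 77.2, 97.8 and 90.8 on the groin arrays and of 14.6, 6.23 and 4.21 on the body side arrays. It was not well above background on body side replicates 2 and 3. With errors of 1.96 and 2.87 from the scanner software, those signals are close to the limit of the array. The fit gave -2.64 as its log2 fold change (a 6.25-fold difference, standard error 0.38, adjusted p = 0.019 from limma). With both dim arrays set to the lowest level at which any probe was well above background, the difference was 4.04-fold. That level is not a strict limit. On body side replicate 3 it was 4.07 (log2), and A_70_P024516, at 4.14, was not well above background there.

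BCL2 did not pass the test with either probe. A_70_P031256 had signals of 364, 428 and 344 on groin replicates 1, 2 and 3 and of 360, 617 and 615 on body side replicates 1, 2 and 3. As scanned, body side replicate 1 lay inside the groin range. Body side arrays were dimmer as a whole, and after quantile normalization the means were 9.26 ± 0.53 and, in the groin, 8.21 ± 0.16 (log2 signal, SD, n = 3 each), with no overlap. The log2 fold change was 1.05 (standard error 0.29, 95% interval 0.35 to 1.75, adjusted p = 0.058 from limma).

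The second BCL2 probe, A_70_P031257, had signals of 366, 339 and 397 on the groin arrays and of 304, 552 and 495 on the body side arrays. Body side replicate 1 had the lowest signal of all 6 arrays and replicates 2 and 3 had the highest ones. Normalized means were 9.04 ± 0.58 for the body side and 8.17 ± 0.14 for the groin (log2 signal, SD, n = 3 each). Its log2 fold change was 0.87 (standard error 0.31, 95% interval 0.12 to 1.61, adjusted p = 0.097 from limma), less than a doubling. The intervals of both BCL2 probes span small differences as well as differences of more than 3-fold.

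The drivers were then set against the inhibitor on each array, as the log2 signal of the one minus that of the other. The signals were taken before normalization. A brightness factor common to all probes of an array cancels in this value, but a shift that depends on signal level does not. Only its difference between areas has a meaning. For CCND2 over CDKN1B A_70_P024516, the groin arrays gave 3.35, 3.89 and 3.98 and the body side arrays 6.69, 8.10 and 7.84, in replicate order. The areas differed by 3.80, with an SD between arrays of 0.75 in body side skin and 0.34 in groin skin (n = 3 each). For CDK1 over the same probe, the groin arrays gave 1.00, 1.98 and 1.93 and the body side arrays 4.98, 6.12 and 5.73, a difference of 3.98. For the BCL2 probes the difference was 3.12 and 2.92. A_70_P024516 was not well above background on body side replicate 3, so the values of that array are not settled. Without that array the differences were 3.65 for CCND2, 3.92 for CDK1 and 3.03 and 2.87 for BCL2. With normexp and all arrays the 4 differences were smaller, at 2.06 for CCND2, 1.97 for CDK1 and 1.20 and 1.13 for BCL2. With the deposited normalized values they were 3.25, 3.70, 2.82 and 2.64, in the same order. Against A_70_P024517, body side replicates 2 and 3 have no settled value, since that probe was not well above background there. On body side replicate 1, where it was, CCND2 stood at 6.67, with 3.33 to 3.79 on the groin arrays, and CDK1 at 4.97, with 0.98 to 1.74. Against A_70_P024516 all body side arrays were above all groin arrays for each of the 4 driver and survival probes. The share of all probes that do so was not taken. Without scaling, A_70_P024516 itself changed by -2.67, the BCL2 probes by 0.45 and 0.25, and the median over all tested probes was -0.47. The lack of overlap is thus not read as a result about the 4 probes. A difference of this kind shows that the genes changed unequally. It follows from the separate changes before normalization, not from the fitted ones above, and was given no test.

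**Figure D2:**
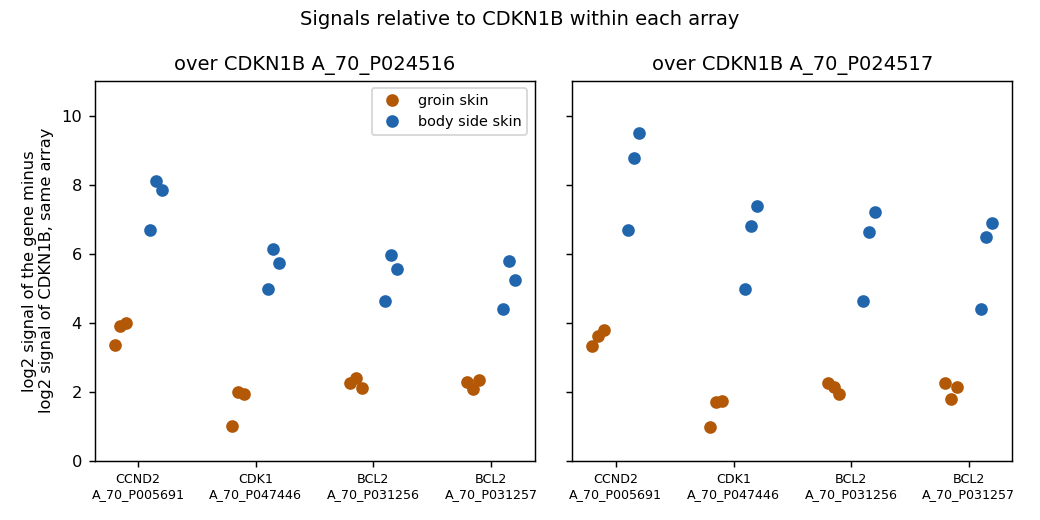
Log2 processed signal of CCND2, CDK1 and both BCL2 probes minus that of a CDKN1B probe on the same array (vertical axis), with A_70_P024516 on the left and A_70_P024517 on the right. Each point is 1 array. A_70_P024516 was not well above background on body side replicate 3, nor A_70_P024517 on body side replicates 2 and 3. The height of those points is not settled. The body side points lie above the groin points in all 8 pairs, with body side replicate 1 the lowest body side point of each. Every value also holds the change of the CDKN1B probe itself.

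Single arrays moved the fitted differences. Without body side replicate 1 the log2 fold change was 1.76 for CCND2, 2.18 for CDK1, 1.36 for BCL2 A_70_P031256 and 1.20 for BCL2 A_70_P031257. Both BCL2 probes were then called (adjusted p = 0.0040 and 0.0059 from limma). Calls over the whole array also rose, from 1170 to 2939 of 13873 tested probes, so the gain was not particular to BCL2. Without groin replicate 1, on which the largest share of spots was well above background, CCND2 was at 1.28 and not called (adjusted p = 0.063 from limma), while CDK1 was at 1.63 and called (adjusted p = 0.040 from limma). Without any other single array neither CCND2 nor CDK1 was called (adjusted p between 0.095 and 0.13 from limma). Few probes of the whole array were called then. There were 13 and 11 without groin replicates 2 and 3, and 44 and 64 without body side replicates 2 and 3. A call lost in those fits is thus not particular to these genes. CDKN1B A_70_P024516 was called without any one of the body side arrays or groin replicate 1, and not without groin replicates 2 and 3 (adjusted p = 0.059 and 0.062 from limma). A_70_P024517 was called without groin replicate 1 or body side replicate 1 and not without any other one (adjusted p between 0.062 and 0.096 from limma).

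By their spot positions the arrays lie in 2 rows and 3 columns of one slide. One column holds groin arrays only, one holds body side arrays only, and the column between them holds groin replicate 3 and body side replicate 1. Within that column the log2 difference was 0.67 for CCND2, 1.15 for CDK1, 0.61 and 0.11 for the BCL2 probes, and -1.79 and -1.98 for the CDKN1B probes. The difference of CDKN1B A_70_P024516 was thus as large within the column as over all arrays, and those of CCND2, CDK1, BCL2 and CDKN1B A_70_P024517 were smaller. Each row held both areas. Within the rows the differences were 1.83 and 1.16 for CCND2, 2.41 and 1.42 for CDK1, 1.49 and 0.71 for BCL2 A_70_P031256, 1.25 and 0.80 for BCL2 A_70_P031257, -1.87 and -1.76 for CDKN1B A_70_P024516 and -2.62 and -2.76 for CDKN1B A_70_P024517. The part of slide column in the results of the other columns cannot be told apart from skin area.

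Other genes of the cycle and of cell death were taken from 4 lists, of promoters of division, brakes on division, survival genes and death genes. Besides the genes above, 11 listed genes carry a RefSeq name on the array, which does not depend on their values. Counting CDK1, the RefSeq names covered 6 of 63 listed promoters, 2 of 24 brakes, 2 of 20 survival genes and 2 of 28 death genes. Of the 11 genes other than CDK1, 1 was called, against 8.4% of all tested probes. It was RPA1, a subunit of the protein that covers single-stranded DNA during replication, with a signal 2.53-fold lower on the body side (adjusted p = 0.027 from limma). The median log2 fold change of the 11 was 0.15, beside 0.088 over all tested probes. Quantile normalization raised body side values, whose arrays were dimmer, so that the median over all probes was -0.029 when 75th percentiles were made equal instead and -0.47 without scaling.

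Of the RefSeq-named promoters, CDK2, CDK4, AURKA and MYC were not called. CDK2, the kinase that follows cyclin D activity at the start of replication, was at 0.40 (log2 fold change, standard error 0.13, adjusted p = 0.089 from limma). CDK4, the partner of cyclin D2, was at 0.15 (standard error 0.16). AURKA, a mitotic kinase, was at 0.37 (standard error 0.21), and the probes of MYC, a transcription factor that promotes growth, were at 0.13 and 0.0028 (standard errors 0.21 and 0.16). Without scaling, the values of CDK2, CDK4, AURKA and 1 MYC probe were below 0, at -0.37, -0.14, -0.47 and -0.040, and that of AURKA was -0.031 with the 75th percentile, so no direction is given for them.

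Among the brakes with a RefSeq name, CDKN1C, of the same family as CDKN1B, was at 0.56 (95% interval -0.23 to 1.34, adjusted p = 0.25 from limma). TGFB1, a secreted growth inhibitor of epithelium, was at 0.31 (standard error 0.19), which turned to -0.45 without scaling and -0.0047 with the 75th percentile. Neither was called.

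Neither survival gene with a RefSeq name was called. The BCL2L1 probes, which read a close relative that also blocks cell death, were at -0.69 (standard error 0.27) and -0.54 (standard error 0.28), with adjusted p of 0.12 and 0.22 from limma. AKT1, a kinase that relays growth factor signals, was at -1.62 (adjusted p = 0.10 from limma), and its body side arrays spread with an SD of 1.20. Of the death genes, the receptor FAS had probes at 0.40 and 0.50 (standard errors 0.25), which were -0.45 and -0.31 without scaling, and 1 of them also turned sign with the 75th percentile. The receptor TNFRSF1A was at -1.84 (standard error 0.48, adjusted p = 0.051 from limma), and only 1 of the 3 body side arrays measured it well above background.

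A further 7 listed genes have names only from the study's tables of differentially expressed probes, and all 7 were called here, 6 higher and 1 lower. Such naming favours a call, so their share called says nothing about them as a group. It does not fix the call, since BCL2 A_70_P031256, named in the same way, was not called. Cyclin B1, the partner of CDK1 at mitosis, was 2.18-fold higher in body side skin (CCNB1, adjusted p = 0.032 from limma). Cyclin A2, which acts from replication onward, was 2.09-fold higher (CCNA2, adjusted p = 0.048 from limma). The log2 fold change of CCNA2 was 1.06, but 0.86 with the 75th percentile and 0.42 without scaling, where the areas overlapped. KIAA0101, a factor bound to the replication clamp, was 2.60-fold higher and RHAMM, a hyaluronan receptor that also acts at the spindle, 2.32-fold. CDKN1A, which encodes the inhibitor p21 and belongs to the same family as CDKN1B, was 3.54-fold higher (log2 fold change 1.82, standard error 0.34, adjusted p = 0.027 from limma). The named inhibitors thus did not share a direction. AKT2 was called higher at a log2 fold change of 1.23, but only 1 of the 3 groin arrays measured it well above background, and the value was 0.61 with the 75th percentile and 0.17 without scaling. PIK3R1, a regulatory subunit of the kinase upstream of AKT, was 2.66-fold lower (adjusted p = 0.020 from limma).

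**Figure D3:**
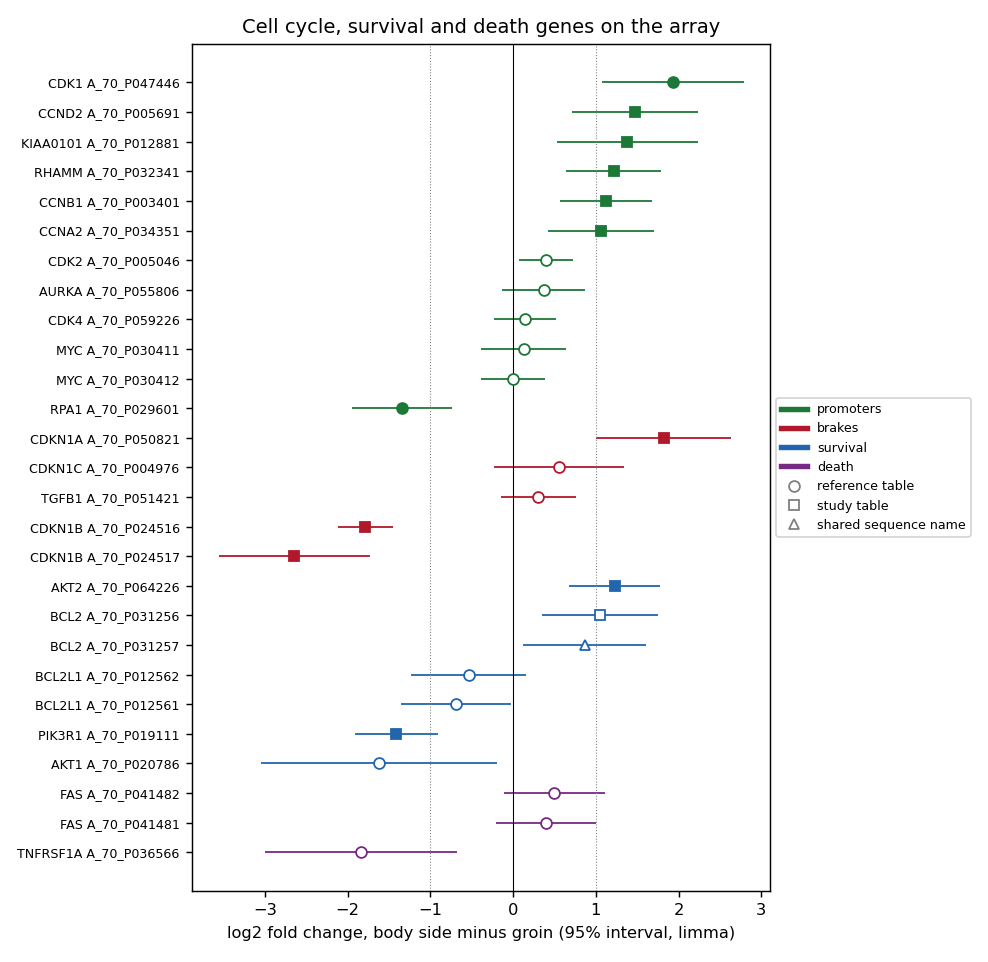
Log2 fold change of body side over groin (horizontal axis, bars are 95% intervals from limma) for each probe of the 4 lists, by list colour. Circles have RefSeq names, squares have names only from the study's tables of called probes, the triangle is the second BCL2 probe, and filled symbols were called. Among circles CDK1 is the only one called higher and RPA1 the only one called lower, while CDKN1A and CDKN1B, both brakes, lie on opposite sides of 0.

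Over the 6 arrays, the normalized values of each gene measured throughout were correlated with those of 504 probes with a RefSeq name that were well above background on every array (503 for CDK1). For CCND2 the most alike were IFNT6 (Pearson r = 0.997), CRHR1 (r = 0.995) and CDK1 itself (r = 0.991). For CDK1 they were CD3D, GGCX and RTP4, each with r = 0.997. BCL2 A_70_P031256 was most like SERPINC1 (r = 0.982) and 2 probes of INHBA (r = 0.982 each), and BCL2 A_70_P031257 was most like MET (r = 0.988), SLC17A5 (r = 0.987) and CRHBP (r = 0.986). The pair of BCL2 probes named different genes. With 6 points that share the areas, arrays and slide positions, these values only describe the order of the arrays.

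Some marker genes of other cell types differed between the areas. Of hair shaft and inner root sheath genes, 4 had a RefSeq name and 1 of them (K38) was called higher. Their summed normalized signal was 379100 to 422600 on body side arrays and 348400 to 392500 on groin arrays, which overlap. That sum is nearly all KRT25 (log2 fold changes 0.11 and -0.043) and KRT27 (0.14), which were not called. The K38 probes were at 3.06 and 2.14, and those of PADI3 at 0.87 and 0.83 and not called. No keratinocyte or endothelial marker of the lists had a RefSeq name. Markers named only from the study's tables are not in the sums, and that naming favours calls. KDR of endothelium (-2.23 and -3.03), POSTN (-2.54), SYK (-1.55) and DGAT2 (-1.04) were called lower. KDR was well above background on at most 1 body side array and SYK on none. DSG4 (1.84) and LEP A_70_P017127 (1.27) were called higher, while LEP A_70_P026616 (1.51) and HBB A_70_P061046 (1.655) were not called. Sums that did not overlap are to be read beside the 43.8% of single probes that did not. They were those of tyrosinase of melanocytes (TYR, 238 to 310 in body side and 60.6 to 82.4 in groin skin), of haemoglobin (HBB, 136 to 285 and 27.8 to 92.7), of 9 immune probes (2546 to 3213 and 2302 to 2486, with both CD4 probes well above background on no array), of decorin of fibroblasts (DCN, 159100 to 181700 and 200400 to 232900) and of 5 muscle probes (4559 to 7744 and 12460 to 15150). The immune sum is mostly CD3E (log2 fold changes 0.17 and 0.62), and no RefSeq-named immune gene was called. The CD1 probes were at 1.92 and 1.86 and LCK at 0.54, while both CD14 probes had lower means on the body side (-0.27 each). The muscle sum is nearly all CNN1, which was called lower (-1.18). The MYOD1 probes (0.71 and 1.11) and the MYOG probes (0.26 and -1.12) were not called. MYOD1 A_70_P051266 and MYOG A_70_P026227 were each well above background on no body side array and 1 groin array. MYOD1 A_70_P051267 was so on 2 arrays of each area. The TYR probes disagreed, since A_70_P008181 was higher on the body side, at 8.12 against 6.11 (mean normalized log2 signal), and A_70_P008182, well above background on 1 array, was lower. Of 6 adipocyte and sebaceous probes, both PLIN1 probes had no usable value on the body side arrays and are not in the sum. The sum of the rest overlapped, at 4865 to 10030 and 7560 to 12400, and is mostly PPARG (-0.52, not called). SCD and 1 of 2 LPL probes were called lower on the body side, where no array measured them well above background. Their part in the differences of CCND2, CDK1, CDKN1B and BCL2 was not tested.

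**Figure D4:**
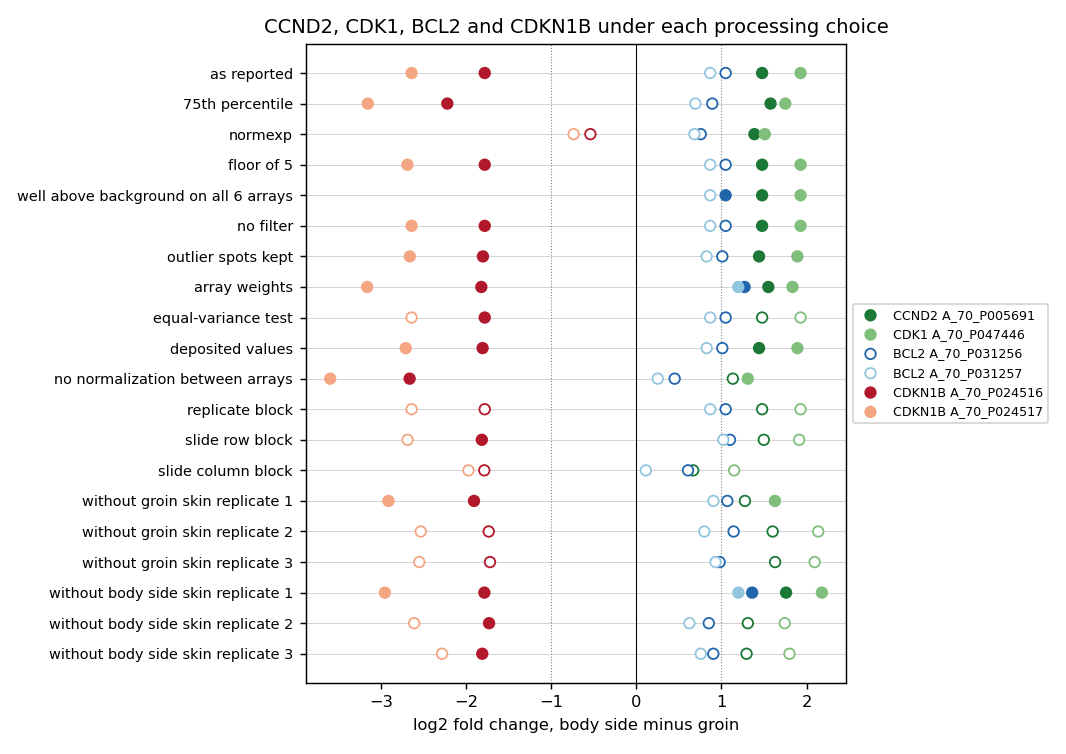
Log2 fold change (horizontal axis) of the 6 probes under each processing choice (rows), filled where the probe was called. No point crosses 0. The CDKN1B probes have no point under the filter that asks for a clear signal on all 6 arrays, and their values shrink most with normexp, to -0.54 and -0.74, and grow most without scaling between arrays, to -2.67 and -3.60.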

How the data were processed

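Agilent Feature Extraction 10.5.1.1 made the scanner files. The authors deposited, for each spot, a processed signal intensity after background correction and flags for outliers and for signals well above background. They also deposited a table of log2 values, quantile normalized in GeneSpring GX per the methods. No probe sequences or genome build are given in the sources used here. The spot positions place all arrays on one slide, whereas the study's methods state one slide per sample, and this is not resolved.

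From the intensities, control and outlier spots were left out, log2 values were averaged per probe and quantile normalized, and limma 3.58.1 in R 4.3.3 was fitted without a block to the probes that 1 or more arrays measured well above background. The method was tested on simulated data with independent normal noise for each probe. Those data held no slide effect, shared animals or detection limit, so that test does not bear on such effects. RefSeq names come from a gene table of assembly ARS-UI_Ramb_v3.0, and other names from the study's tables, from which no values were taken. The 4 genes and the lists were chosen with earlier results of these data known. All list genes found by name are given, except 1 that is not reported here and was left out of the lists. Markers are given as totals over their RefSeq-named probes with a value on every array. Alternatives were another scaling, background correction, floor, filter, weighting, test or block, the deposited log2 values, and each array left out. The number of arrays limits the precision.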

Additional observations from a re-analysis of the deposited data

How the results depend on the processing

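No direction of the 6 probes turned in 112 values under other settings. The fit without scaling between arrays was added after seeing the data. CCND2 was not called with the equal-variance test (log2 fold change 1.48, adjusted p = 0.085), slide row as a block (1.498) or column (0.67), or without scaling (1.13). CDK1 was not called with the equal-variance test (1.93) or slide row (1.91) or column (1.15) as a block. CDKN1B A_70_P024516 was not called with normexp (-0.54) or slide column (-1.79), nor A_70_P024517 with normexp (-0.74), the equal-variance test (-2.64), slide row (-2.69) or slide column (-1.98). Normexp added 50 to each signal, which shrinks differences of dim probes. BCL2 A_70_P031256 was called when only probes with a clear signal on all 6 arrays were tested (1.05) and with array weights (1.27), as was A_70_P031257 with array weights (1.20). With each array left out, the values lay between 1.28 and 1.76 for CCND2, 1.63 and 2.18 for CDK1, -1.91 and -1.72 for CDKN1B A_70_P024516, -2.96 and -2.29 for A_70_P024517, 0.85 and 1.36 for BCL2 A_70_P031256 and 0.62 and 1.20 for A_70_P031257.

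With replicate number as a block, CCND2 (1.48), CDK1 (1.93) and CDKN1B A_70_P024516 (-1.78) each had an adjusted p of 0.053 and A_70_P024517 (-2.64) of 0.056 from limma, and none was called. Nothing states that a number stands for one animal. Deviations from the area means correlated at 0.13, 0.073 and 0.057 within the numbers, and not every array was most like its own number.

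With normexp the differences from the CDKN1B probes were 2.06 and 2.25 for CCND2, 1.97 and 2.17 for CDK1 and 1.13 to 1.39 for BCL2, against 2.92 to 4.91 over all 8 pairs. Among RefSeq-named genes only, the 2 called promoters, CDK1 and RPA1, became 1 with normexp and 0 with the equal-variance test, the replicate, row or column block, and it ran from 0 to 2 over the arrays left out one at a time. Survival genes had 1 call with array weights and without scaling, death genes 1 with these and the deposited values, and each between 0 and 1 with each array left out. Over the array, 1170 calls became 444 with normexp, 3367 with array weights, 342 with the equal-variance test, 2349 without scaling, 8, 52 and 0 with the replicate, row and column blocks, and ran from 11 to 2939 over the arrays left out one at a time. The cause of these changes was not tested.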
